A study of Mus musculus with 391 samples.

Results

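The cells described here are 128 single cells of the adult mouse brain that carried reads of border macrophage genes and few reads of major histocompatibility complex (MHC) class II. They were drawn from the 280 cells that the labels call microglia, out of 391 cells in all, so they made up 45.7% of that class. They were chosen by measured values, as CPM, a cell's reads of a gene scaled to the same total of reads assigned to genes in every cell: Sall1, Adgrg1 and Slc2a5, genes of parenchymal microglia, summed to less than 200 CPM, Stab1, Ms4a7 and Pf4, genes of border macrophages, to at least 300 CPM, and H2-Aa, which encodes an MHC class II alpha chain, stayed under 1500 CPM. These 7 genes are therefore no finding, and since the same cells supply every other gene too, all comparisons below are descriptions. They are called the class II-low cells in what follows.

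The study took brain tissue of adult mice, freed vascular fragments from it, digested these further to single cells and sequenced each cell by SMART-seq2, a plate-based method that reads along whole transcripts. The labels give every cell as brain, as microglia or endothelial cell, and name no strain, genotype, treatment, sex or animal. The other 152 cells of the microglia class fell into 3 groups by the same 3 measures: 55 class II-high cells, which met both sums but reached the H2-Aa cutoff, 55 Sall1-sum-high cells, which reached the microglia sum, and 42 remaining cells low in both sums, 40 of them above the H2-Aa cutoff. A further 111 endothelial cells, most of them from other plates, served as a background for genes that macrophages express and endothelium should lack.

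Border-associated macrophages live along brain vessels, in the meninges and in the choroid plexus, outside the parenchyma that microglia occupy. They take up proteins, lipids and cell debris from the fluid around them through scavenger receptors and lectins, of which the mannose receptor Mrc1 (CD206) and the haemoglobin receptor Cd163 are the best known. In mice they are commonly divided into cells low in MHC class II, part of which carry the hyaluronan receptor Lyve1, and cells high in MHC class II, which can present peptides to CD4 T cells.

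Between 39876 and 463296 reads were assigned to genes in each class II-low cell, with a median of 124570.0, against medians of 136813 in class II-high, 196450.0 in Sall1-sum-high and 174345 in endothelial cells. A median of 2476.5 genes was read per class II-low cell. Drawing 39000 reads at random from each cell left a median of 1746.5. The cells came from plates A (66 cells) and B (62 cells), which also held every other cell of the microglia class. Of the endothelial cells, 17 came from plates A and B, 50 from plate C and 44 from plate D. Endothelial values given below are over all of these plates, so they mostly compare cells of different plates. A plate is not an animal, and with no animal named each group counts as 1 sample: no test between groups was possible, and the 95% intervals given here are exact and cover counting error only. Reads were counted without molecular identifiers, so they are not independent molecules. Reads of Y-linked genes were found in 78 of the class II-low cells, and none had more than 1 read of Xist.

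The cutoffs were met with unequal margins. Summed reads of Stab1, Ms4a7 and Pf4 ran from 343 to 12934 CPM in the class II-low cells, with a median of 5670.2, and the nearest cell left out by this cutoff alone had 63.8 CPM. The microglia sum reached 57.8 CPM at most, and the nearest excluded cell had 304 CPM. H2-Aa was closest to its cutoff: the highest class II-low cell had 1211 CPM and the lowest class II-high cell 1533 CPM, while the medians were 86.7 and 6717 CPM.

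Of the 6 genes named as markers of these cells (F13a1, Mrc1, Lyve1, Cd163, Cd38 and Ccl24), 3 or more stood at 50 CPM or more in 97 of the 128 class II-low cells (75.8%). This was so in 15 of the 55 class II-high cells (27.3%), in 1 Sall1-sum-high cell (1.82%), and in none of the 42 remaining and 111 endothelial cells. All 6 together were found in 7 class II-low cells, while 11 had 1 marker and 2 had none. The markers were chosen with earlier results of these data known, so these counts are a description.

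**Figure D1:**
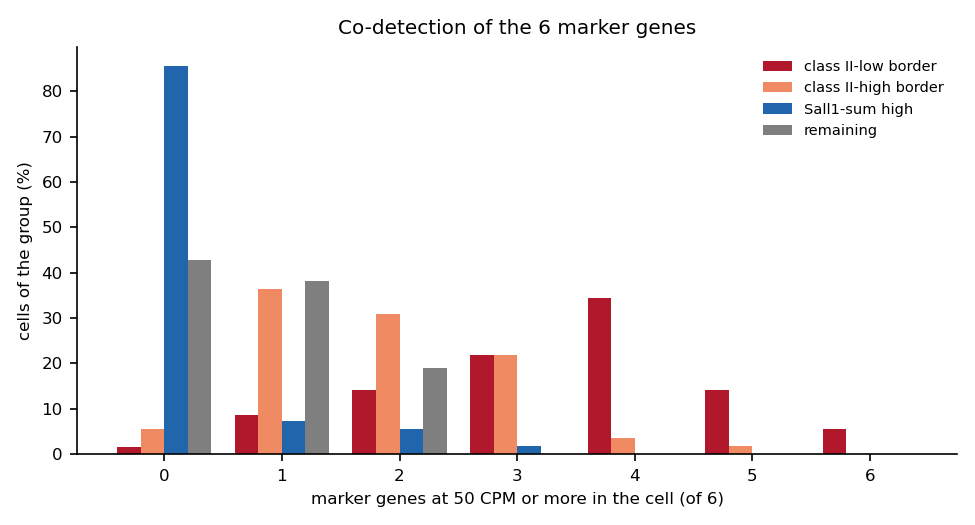
Number of the 6 marker genes at 50 CPM or more per cell (horizontal axis) against the percentage of cells (vertical axis) in each group. The class II-low cells peak at 4 markers (44 of 128 cells), whereas 47 of the 55 Sall1-sum-high cells have none.

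F13a1, the A subunit of coagulation factor XIII and a gene of resident macrophages, ran from 0 through a median of 1371 to 8735 CPM over the class II-low cells. In class II-high cells the lowest, median and highest values were 0, 23 and 4625 CPM, and in Sall1-sum-high cells 0, 4.73 and 559.8 CPM. The class II-low cells were thus high, the class II-high cells overlapped them over most of the range, and the Sall1-sum-high cells reached only its lower end. Pooled over cells, F13a1 stood at 1714 CPM (1696 to 1733) in the class II-low cells, 2.09 times (2.04 to 2.15) its level in class II-high cells and 98.9 times (85.8 to 115) that in Sall1-sum-high cells. The first of these ratios rested mainly on plate B, where the log2 difference was 1.61, against 0.35 in plate A. It was 0.70 when every cell was weighted equally and 0.74 after thinning, both under 2-fold.

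Mrc1 was read more evenly. Its values ran from 0 through 2789 to 12414 CPM in the class II-low cells and from 0 through 1794 to 7526 CPM in class II-high cells, and 117 of 128 and 50 of 55 cells reached 50 CPM. The groups overlapped almost completely, and the pooled ratio was 1.59 (1.56 to 1.61), short of the 2-fold used as a threshold throughout. Against Sall1-sum-high cells, whose median was 11.2 CPM, the ratio was 7.64.

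Cd163 had a median of 161 CPM and a highest value of 3652 CPM in the class II-low cells, and 77 of them (60.2%) reached 50 CPM. In class II-high cells the median was 0, the highest 3339.7 CPM, and 13 of 55 reached 50 CPM. The ranges overlapped, with the class II-low cells more often in the upper part, and the pooled level was 3.12 times higher (2.96 to 3.3).

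Lyve1 marked a minority. Its median was 0 and its highest value 4898 CPM in the class II-low cells, of which 24 (18.8%) reached 50 CPM, and 1 cell supplied 20.1% of all Lyve1 reads. A read of it was found in 30.5% of the class II-low cells and in 2.7% of endothelial cells, and after thinning to 39000 reads in 25% and 0%. Only 1 class II-high cell reached 50 CPM, and the pooled levels were 344 CPM (335 to 352) and 6.57 CPM, a ratio of 52.3 (40.2 to 69.3). All 24 cells with Lyve1 at 50 CPM also had Mrc1 at that level, and 18 of them had Folr2, the folate receptor beta gene.

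Ccl24, a chemokine that attracts eosinophils through Ccr3, had a median of 181 CPM and a highest value of 3679 CPM in the class II-low cells, and 71 of them (55.5%) reached 50 CPM. Both the class II-high and the Sall1-sum-high cells had a median of 0, with 6 and 3 cells at 50 CPM. The pooled level of 612 CPM (601 to 624) was 8.42 times (7.76 to 9.14) that of class II-high cells, and the log2 difference was 3.01 in plate A and 3.07 in plate B.

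Cd38, a surface enzyme that breaks down NAD, reached 50 CPM in 48 class II-low cells (37.5%), in 8 class II-high cells and, unlike the other markers, in 50 of the 111 endothelial cells. Its highest class II-low value was 3454 CPM and the median 5.18 CPM. The class II-low and endothelial cells had like pooled levels, 383 CPM (374 to 392) and 395 CPM (387 to 404). Class II-high cells stood at 55.9 CPM. Cd38 thus set the class II-low cells apart from other cells of the microglia class but not from endothelium. Most of the endothelial cells came from other plates.

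**Figure D2:**
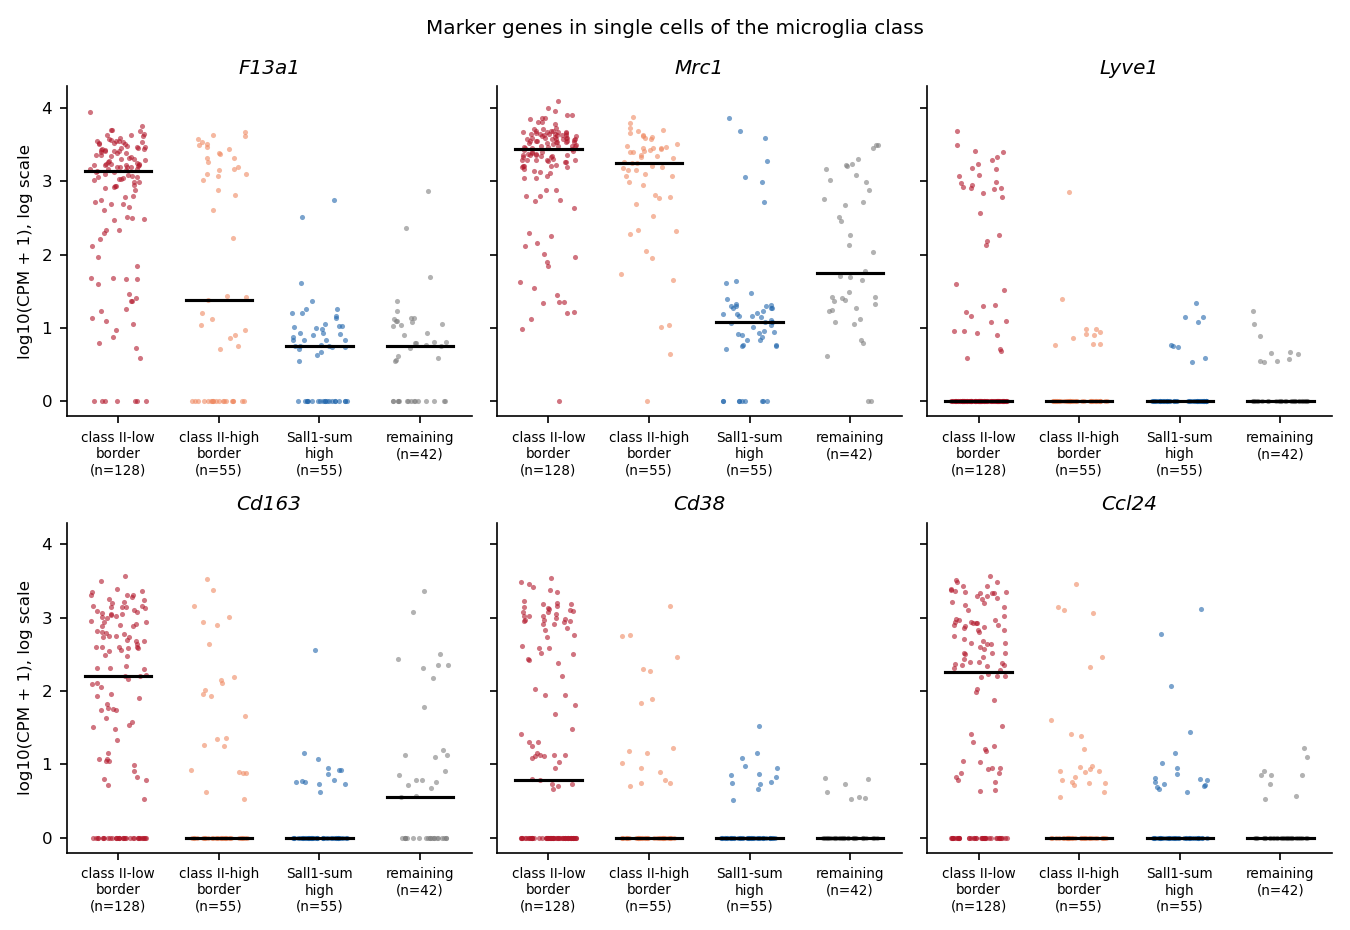
CPM per cell of the 6 marker genes on a log10(CPM + 1) axis, with 1 point per cell and the median of each group as a bar. Mrc1 and F13a1 are high in most class II-low cells, Cd163 and Ccl24 in more than 50% of them, and Lyve1 in 24 cells.

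Over all genes, 4776 were measured against class II-high cells, meaning 10 CPM or more and a read in at least 20% of the cells in either group. Of these, 704 (14.7%) were higher and 612 (12.8%) lower by 2-fold or more on the log2(CPM + 1) scale in the class II-low cells. Against Sall1-sum-high cells 5155 genes were measured, with 935 (18.1%) higher and 895 (17.4%) lower. Against all 152 other cells of the microglia class the counts were 484 (9.96%) and 709 (14.6%) of 4861. The counts that reached 2-fold within each plate were smaller, at 298 and 218 against class II-high cells and 497 and 493 against Sall1-sum-high cells. The class II-low cells take part in all of these comparisons, which therefore share them. Between the class II-low cells of plates A and B, 557 (12.0%) of 4661 measured genes were higher in plate A and 689 (14.8%) lower. These shares were close to those against class II-high cells.

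A list of 22 border macrophage genes, which holds the 6 markers and was drawn up with earlier results of these cells known, had 18 genes measured against Sall1-sum-high cells. All 18 were higher by 2-fold or more, with a median log2 difference of 3.98 beside 0.03 over all measured genes. The class II-low cells were chosen for reads of Stab1, Ms4a7 and Pf4, and the Sall1-sum-high cells for microglia genes. Higher levels of border macrophage genes than in Sall1-sum-high cells are therefore no finding, for the list or for its single genes. Against class II-high cells 12 of 19 were higher and none lower, where 14.7% and 12.8% of all measured genes were. The median was 1.29 beside 0.04. Between the class II-low cells of plates A and B none of 18 passed 2-fold in either direction, where 557 (12.0%) of 4661 measured genes were higher and 689 (14.8%) lower in plate A.

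Among the other genes of that list, Cbr2, a carbonyl reductase, ran from 0 through 1002 to 6574 CPM and reached 50 CPM in 111 class II-low cells. Class II-high cells ran from 0 through 10.2 to 3336 CPM, so most class II-low cells lay above the class II-high median, and the pooled ratio was 2.95 (2.84 to 3.06). Dab2, an adaptor for clathrin-mediated endocytosis, reached 50 CPM in 117 class II-low and 44 class II-high cells, with pooled levels of 2617 and 1070.2 CPM. Fcna, which encodes ficolin A, a lectin that starts the complement cascade, reached 50 CPM in 32 class II-low cells (25%) and in 1 class II-high cell. Colec12, a scavenger receptor with a lectin domain, stood at 188 CPM (182 to 195) in the class II-low cells and at 22.5 CPM in class II-high cells.

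Not every border macrophage gene was higher than in class II-high cells. Maf, a transcription factor of resident macrophages, stood at 583 and 548 CPM, with medians per cell of 383 and 285 CPM. Siglec1, a sialic acid receptor, was read in few cells and stood at 57.9 CPM in the class II-low and 108 CPM in the class II-high cells. Igf1, a growth factor, was at 528 and 426 CPM, with log2 differences of 1.88 in plate A and -0.11 in plate B, so its direction was not shared by the plates. Against Sall1-sum-high cells, at 20.1 CPM, Igf1 was 26.2 times higher (23 to 30.1), in both plates.

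Promoters of 2 of these genes are shown because both genes were high in most class II-low cells. They come from RefSeq (GRCm38.p6, 250 bases before to 50 after the start of the gene, 5′ to 3′ on the strand of the gene), and capitals mark GAGGAA on either strand, a core of the sequence bound by the macrophage factor PU.1. Mrc1 lies at chr2:14229164-14229463 on the plus strand and Cbr2 at chr11:120731972-120732271 on the minus strand.
Mrc1: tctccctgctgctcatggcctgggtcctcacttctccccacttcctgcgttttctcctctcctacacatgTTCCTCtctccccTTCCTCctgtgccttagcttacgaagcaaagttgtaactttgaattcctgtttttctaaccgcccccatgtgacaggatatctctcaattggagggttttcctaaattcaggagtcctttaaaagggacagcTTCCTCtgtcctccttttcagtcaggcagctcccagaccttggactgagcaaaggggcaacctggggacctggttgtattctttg
Cbr2: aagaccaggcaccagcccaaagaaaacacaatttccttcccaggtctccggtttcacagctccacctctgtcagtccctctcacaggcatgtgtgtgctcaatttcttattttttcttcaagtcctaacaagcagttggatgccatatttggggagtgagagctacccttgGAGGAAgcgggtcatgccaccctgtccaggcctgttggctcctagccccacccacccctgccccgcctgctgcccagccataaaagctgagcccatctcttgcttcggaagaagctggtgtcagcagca
In Mrc1 the letters were found 3 times, read on the opposite strand as TTCCTC, beginning 180, 167 and 35 bases before the start, and in Cbr2 once, 79 bases before it. The same letters occur in 28.1% of the 32544 promoters of the table and in 6 of the 16 border macrophage list genes that the table holds (37.5%), and in 6 of 14 MHC class II list genes (42.9%), so they are common, and a match does not show that the factor binds there.

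The lectins and scavenger receptors set the class II-low cells apart in different ways. Clec4n (dectin-2, a receptor for fungal mannans) had a median of 372 CPM and a highest value of 3332 CPM and reached 50 CPM in 76 class II-low cells, but in only 5 class II-high cells. Its pooled level of 661 CPM (649 to 672) was 15 times (13.5 to 16.6) that in class II-high cells, with log2 differences of 3.60 in plate A and 4.04 in plate B. Clec10a, a lectin for galactose-type sugars, had a median of 69.6 CPM and a highest value of 6369 CPM, and reached 50 CPM in 65 class II-low and 10 class II-high cells. It stood at 605 CPM pooled, 6.34 times (5.9 to 6.81) its level in class II-high cells. Cd209f, a relative of DC-SIGN, reached 50 CPM in 20 class II-low and 2 class II-high cells. Of the 11 C-type lectin genes measured, 4 were higher and 2 lower than in class II-high cells, with a median log2 difference of 0.30. Over all measured genes 14.7% were higher and 12.8% lower. Against Sall1-sum-high cells 8 of the 11 were higher and 1 lower, with a median of 3.06, where 18.1% and 17.4% of all measured genes were.

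Of the scavenger receptor list, 9 of 13 genes were higher and 1 lower than in the other microglia-class cells, where 9.96% and 14.6% of all measured genes were. The median log2 difference was 1.72 beside -0.03 over all genes. Against class II-high cells the count was 4 of 14 higher and 2 lower, where 14.7% and 12.8% of all measured genes were. Cd36, a receptor for oxidised lipids, was among those that did not pass 2-fold there, at 621 CPM (609.5 to 632) and 438 CPM (424 to 452), yet it was 16.9 times (15.3 to 18.6) its level in Sall1-sum-high cells. The list shares Mrc1, Cd163, Lyve1, Colec12, Folr2, Dab2 and Siglec1 with the border macrophage list, so the counts of both lists are not separate. The choice of the cells on border macrophage genes bears on both.

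Among iron and heme genes, a few were higher in the class II-low cells. Slc40a1 encodes ferroportin, which exports iron from macrophages. It ran from 0 through 261 to 5715 CPM in the class II-low cells, of which 76 reached 50 CPM. In class II-high cells 4 did, and 1 of these supplied 78.2% of the group's reads. Nearly all class II-high cells were thus low, and the pooled levels were 861 CPM (848 to 875) and 90 CPM, a ratio of 9.57 (8.9 to 10.3). Blvra and Blvrb, whose products reduce the heme breakdown product biliverdin, were at 335 and 695 CPM in the class II-low cells. Their ratios to class II-high cells were 3.36 (3.12 to 3.61) and 1.82. Spic, a transcription factor that red pulp macrophages of the spleen need, reached 50 CPM in 14 class II-low, 3 class II-high and 1 Sall1-sum-high cells. Hmox1, which opens the heme ring, stood at 544 and 471 CPM in class II-low and class II-high cells, with log2 differences of -0.56 in plate A and 0.82 in plate B. Of 14 iron and heme genes measured, 4 were higher and 1 lower than in class II-high cells (median log2 difference 0.54), where 14.7% of all measured genes were higher and 12.8% lower. The other 9 did not pass 2-fold. None of the 14 differed 2-fold between the plates, where 12.0% of all measured genes were higher in plate A and 14.8% lower.

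Several secreted factors were also higher. Gas6, a ligand that bridges dying cells to TAM receptors, stood at 1202 CPM in the class II-low and 535 CPM in the class II-high cells, a ratio of 2.25, and at 1624 CPM in endothelial cells. Cfp, which encodes properdin, a stabiliser of the alternative complement pathway, reached 50 CPM in 32 class II-low and 2 class II-high cells and was 8.05 times (7.27 to 8.93) higher in the pool. Bmp2, a ligand of the TGF-beta family, reached 50 CPM in 21 class II-low cells and stood at 131 CPM, 20.2 times (15.5 to 26.9) its level in class II-high cells. Igfbp4, which binds insulin-like growth factors, was at 1299 CPM and reached 50 CPM in 95 class II-low cells, against 409 CPM in class II-high and 844 CPM in endothelial cells. Gpx3, a secreted glutathione peroxidase, reached 50 CPM in 54 class II-low cells and stood at 616 CPM, 5.54 times its level in class II-high cells. Of 13 cytokine and growth factor genes measured, among them Gas6 and Bmp2, 4 were higher and 1 lower than in class II-high cells, and the median log2 difference was -0.01. Of 11 complement genes measured, among them Cfp, 1 was higher and 1 lower, with a median of 0.09. Over all genes measured against class II-high cells, 14.7% were higher and 12.8% lower. Igfbp4 and Gpx3 belong to neither list.

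**Figure D3:**
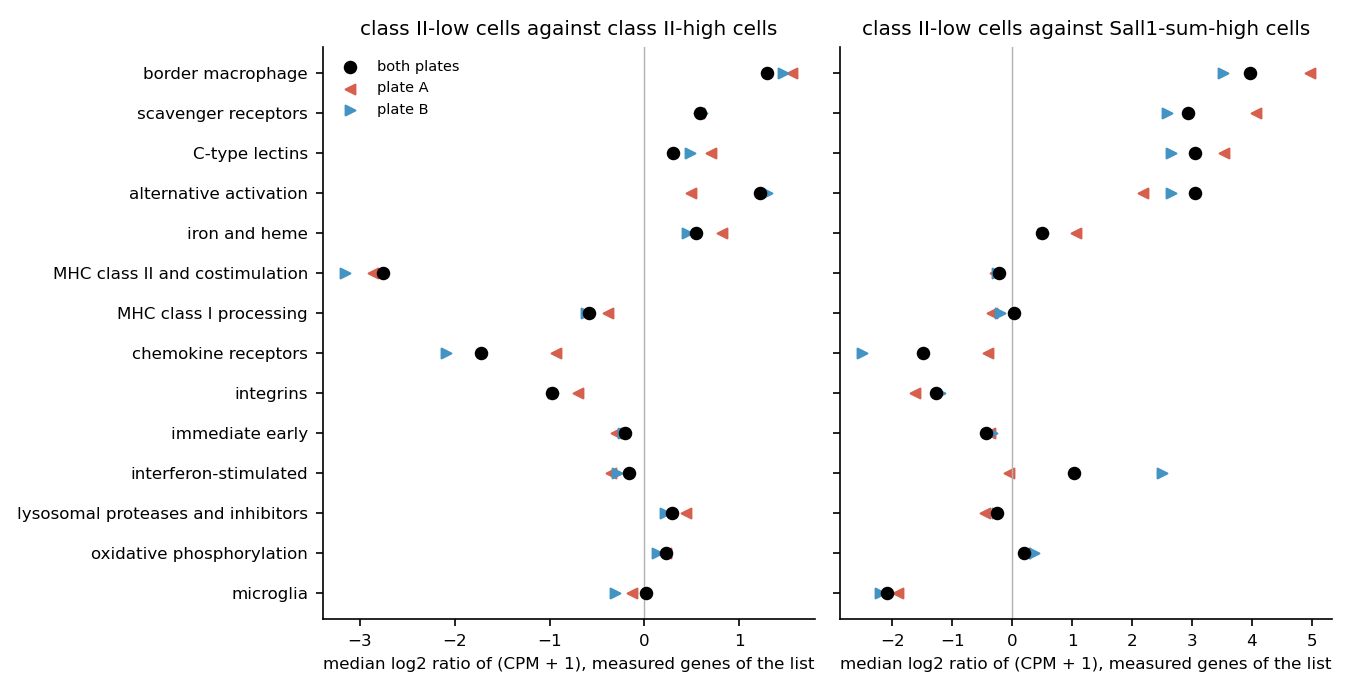
Median log2 difference of the class II-low cells from each comparison group (horizontal axis) for the gene lists (vertical axis), over both plates (circles) and within plates A and B (triangles), where 0 means equal levels. Border macrophage genes lie at 1.29 against class II-high and 3.98 against Sall1-sum-high cells, and MHC class II and costimulation genes at -2.76 and -0.22.

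MHC class II genes belong to the same set as H2-Aa, on which the cells were chosen, so their levels against class II-high cells are no finding. The class II protein is a pair of an alpha and a beta chain, loaded with peptide in endosomes under control of the invariant chain Cd74 and the H2-DM proteins, and Ciita switches the whole set on. H2-Ab1, the beta chain partner of H2-Aa, ran from 7.8 through 88.7 to 2697 CPM in the class II-low cells and from 79.4 through 6356 to 19175 CPM in class II-high cells. The ranges overlapped, since the lowest class II-high cell lay below the class II-low median, but the class II-high median lay above every class II-low cell. The pooled levels of 173 CPM (167 to 179) and 5377 CPM differed 31.1-fold (30 to 32.3). H2-Eb1, the beta chain of the second class II pair, had medians of 79.8 and 5949 CPM. Cd74 had medians of 322 and 10289 CPM and pooled levels of 737 and 8833 CPM, a 12-fold difference (11.8 to 12.2).

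The class II-low cells were not below Sall1-sum-high cells in most of these genes. H2-Ab1 stood at 148 CPM there, with a median per cell of 45.6 CPM, H2-Eb1 at 124 CPM and Cd74 at 814 CPM, so that the log2 differences of the class II-low cells were 0.22, 0.44 and -0.14. H2-DMa was an exception, at 211 CPM in the class II-low, 607 CPM in the Sall1-sum-high and 1478 CPM in the class II-high cells. Of the MHC class II and costimulation list, 8 of 12 genes measured were lower and 1 higher than in class II-high cells, where 12.8% and 14.7% of all measured genes were. Against Sall1-sum-high cells 4 of 12 were lower and none higher, where 17.4% and 18.1% of all measured genes were.

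Ciita was read in 13 class II-low cells (10.2%, and 3.12% after thinning), and none of them reached 50 CPM, while 2.7% of endothelial cells had a read. Its pooled level was 0.746 CPM (0.408 to 1.25), close to the 0.993 CPM of Sall1-sum-high cells, whereas class II-high cells stood at 109 CPM with 9 cells at 50 CPM and the remaining cells at 339.6 CPM with 20. Costimulatory Cd86 did not share this pattern, with 475 CPM in the class II-low and 319.5 CPM in the class II-high cells, a log2 difference of 0.57. MHC class I genes differed less than class II genes, with a median log2 difference of -0.58 from class II-high cells. None of 16 measured was higher and 3 were lower by 2-fold or more, where 14.7% and 12.8% of all measured genes were.

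**Figure D4:**
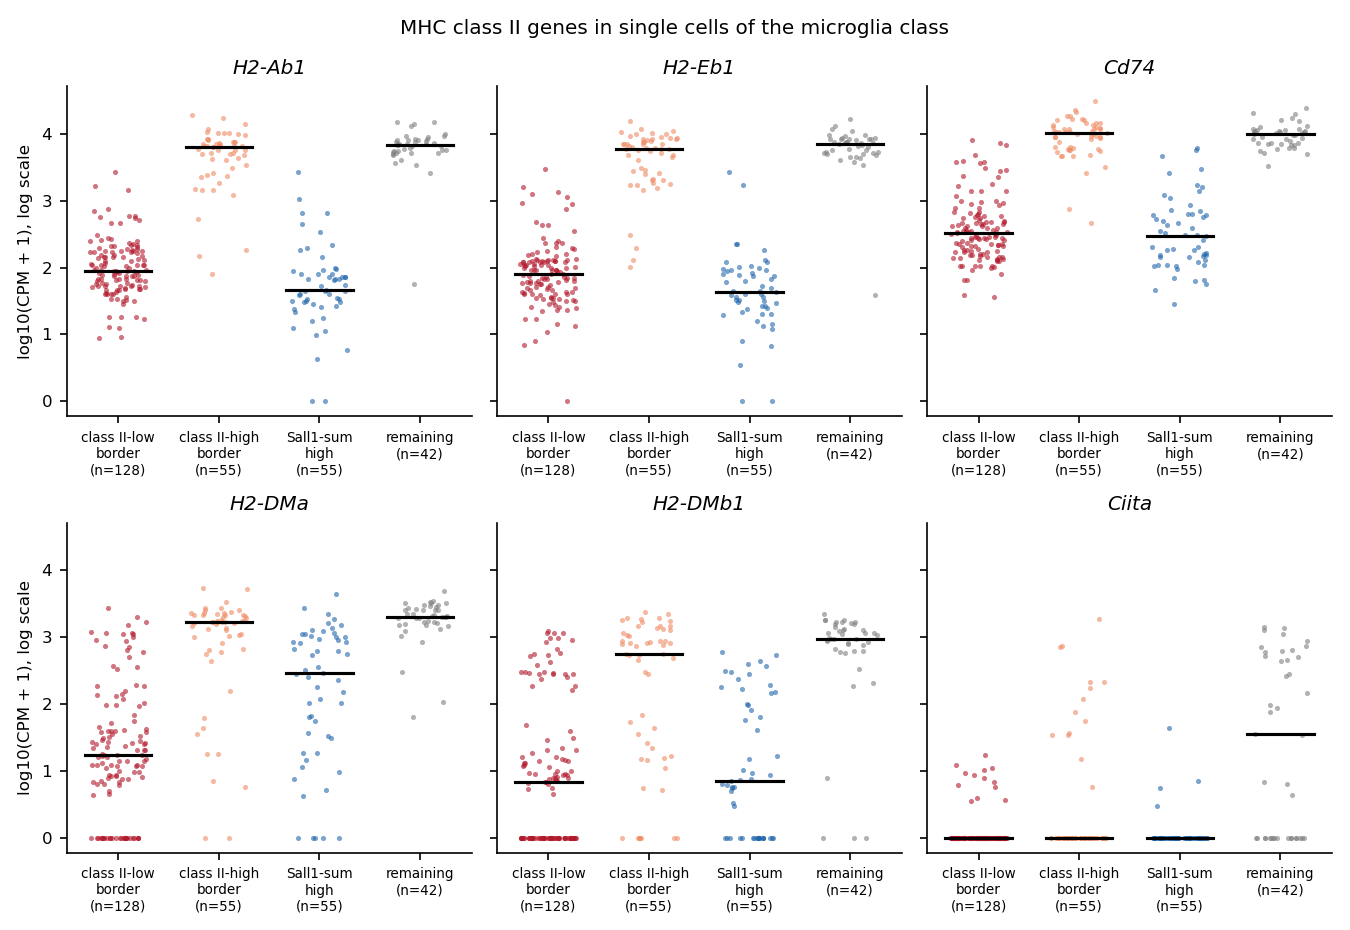
CPM per cell of class II genes on a log10(CPM + 1) axis, with 1 point per cell and the median of each group as a bar. For H2-Ab1, H2-Eb1 and Cd74 the class II-low cells lie near the Sall1-sum-high cells, and most class II-high and remaining cells lie above both.

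The promoters of H2-Aa and H2-Eb1 are shown because they encode chains of the class II proteins by which the cells are named. They are from the same RefSeq table and build, H2-Aa at chr17:34287774-34288073 on the minus strand and H2-Eb1 at chr17:34305617-34305916 on the plus strand. Capitals mark CTGATTGG, the Y box of class II promoters, which was searched on both strands.
H2-Aa: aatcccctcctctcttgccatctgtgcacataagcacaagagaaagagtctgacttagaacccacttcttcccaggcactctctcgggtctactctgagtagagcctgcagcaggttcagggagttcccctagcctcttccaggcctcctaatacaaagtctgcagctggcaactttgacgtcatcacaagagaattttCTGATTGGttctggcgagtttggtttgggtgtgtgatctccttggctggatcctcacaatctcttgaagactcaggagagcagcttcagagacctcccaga
H2-Eb1: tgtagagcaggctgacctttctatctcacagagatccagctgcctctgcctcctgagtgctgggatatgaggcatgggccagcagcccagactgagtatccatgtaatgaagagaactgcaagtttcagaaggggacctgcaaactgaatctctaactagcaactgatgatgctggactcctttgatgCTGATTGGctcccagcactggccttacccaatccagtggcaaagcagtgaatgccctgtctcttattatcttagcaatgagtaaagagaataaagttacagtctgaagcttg
The Y box began 51 bases before the start of H2-Aa and 62 bases before that of H2-Eb1, both on the strand of the gene. It occurs in 4.07% of the 32544 promoters and in none of the 16 border macrophage list genes that the table holds. Of the 14 MHC class II and costimulation list genes in the table, 3 have it: H2-Eb1, H2-Eb2 and H2-Oa. H2-Aa is not in that list. No match says only that these letters are not in the window.

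Genes lower in the class II-low cells included receptors that the other macrophages carried. Cx3cr1, the fractalkine receptor, had a median of 275 CPM and a highest value of 7806 CPM, and its pooled level of 1151 CPM compared with 2562 CPM in class II-high and 4528 CPM in Sall1-sum-high cells. The log2 difference of Cx3cr1 from class II-high cells was -0.94 in plate A, under 2-fold, and -1.49 in plate B. Of 5 chemokine receptor genes measured, 4 were lower than in class II-high cells and none higher, with medians of -0.94 in plate A and -2.09 in plate B. Over all measured genes 12.8% were lower and 14.7% higher. Within the class II-low cells 4 of 6 chemokine receptor genes were higher and 1 lower in plate A than in plate B, where 12.0% and 14.8% of all measured genes were. Plbd1, a lysosomal phospholipase-like protein, reached 50 CPM in 4 class II-low and 26 class II-high cells. Cd72, a B cell and macrophage surface receptor, was at 18.2 CPM against 254 CPM, and Fcgr4, an activating receptor for IgG, at 38.9 CPM (36.1 to 41.8) against 228 CPM. Fcgrt, the neonatal Fc receptor that recycles IgG, went the other way, at 1149.9 CPM (1135 to 1165) against 543 CPM, so genes for IgG receptors did not differ in 1 direction. Axl, a TAM receptor, was at 305 CPM in the class II-low and 890.1 CPM in the class II-high cells. Among integrins, 3 of 7 genes measured were lower than in class II-high cells and 6 of 7 lower than in Sall1-sum-high cells. Over all measured genes the shares lower were 12.8% and 17.4%. Itgam, which encodes the integrin alpha chain CD11b, stood at 15.1, 50.1 and 226 CPM in class II-low, class II-high and Sall1-sum-high cells.

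**Figure D5:**
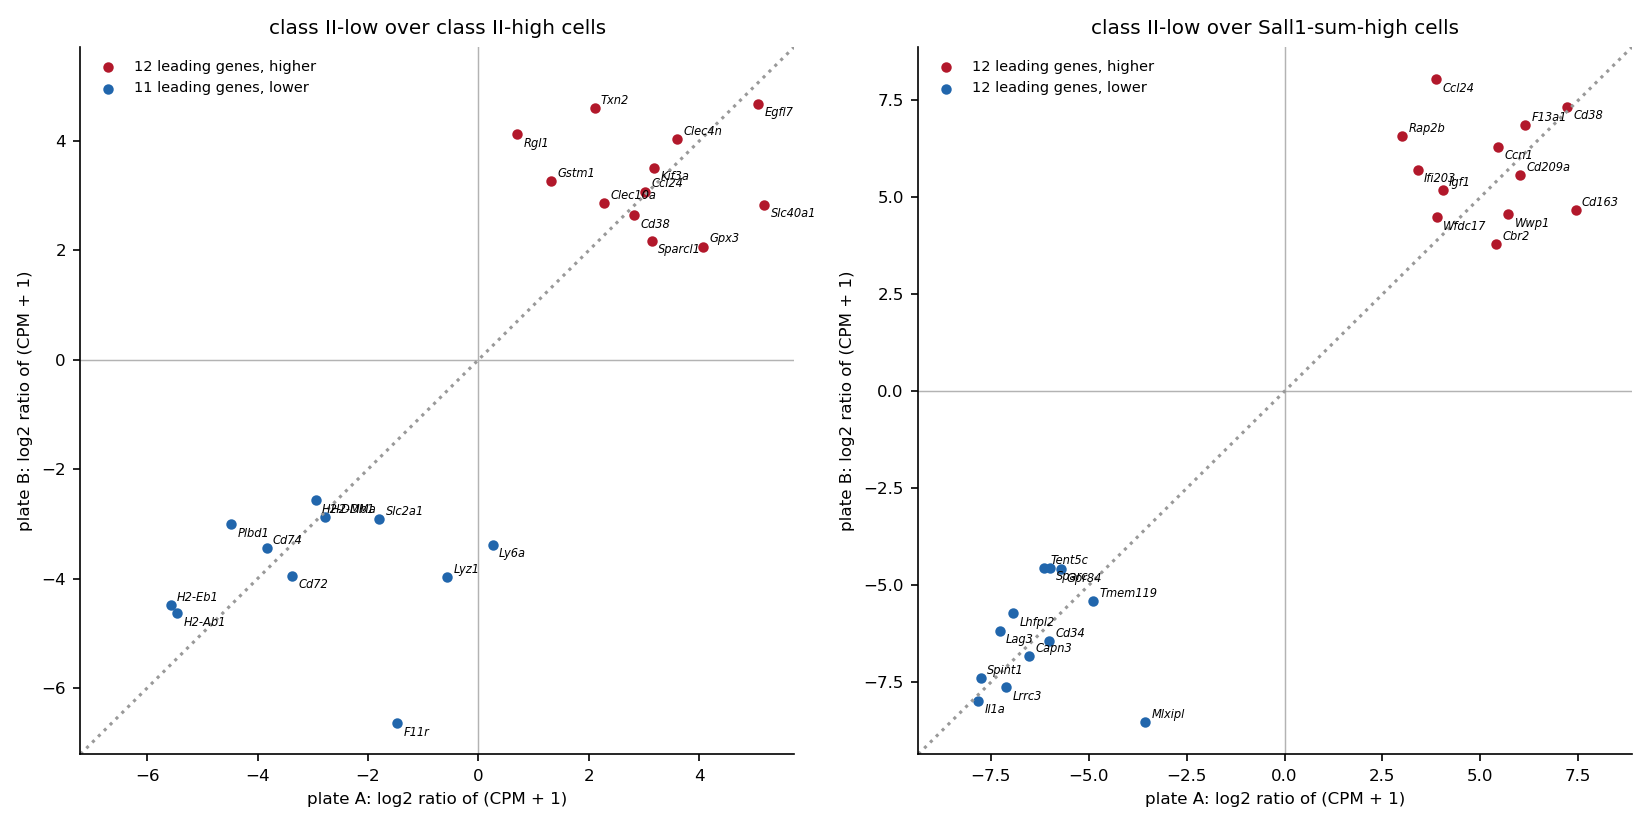
Log2 ratio of (CPM + 1) in plate A (horizontal axis) and plate B (vertical axis) for up to 12 leading genes each way, class II-low over class II-high cells (left) and over Sall1-sum-high cells (right), with a dotted line of equality. On the left Ccl24 lies at 3.01 and 3.07 and Cd72 at -3.38 and -3.95, and Ly6a alone of these genes lies on opposite sides of 0, at 0.26 and -3.38.

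Microglia markers were mostly lower in the class II-low than in Sall1-sum-high cells. Most were closer to their level in class II-high cells, though single genes such as Tmem119 were lower there too. Both groups were chosen on the summed reads of Sall1, Adgrg1 and Slc2a5, low in class II-low and high in Sall1-sum-high cells. Lower levels of microglia genes than in Sall1-sum-high cells are therefore no finding. Of the 20 listed microglia genes, 16 of 20 measured were lower than in Sall1-sum-high cells and none higher. Among all measured genes 17.4% were lower and 18.1% higher. The median log2 difference of the microglia genes was -2.09. Against class II-high cells 4 of 19 were lower and 1 higher, where 12.8% of all measured genes were lower and 14.7% higher. The median was 0.02 over both plates, but -0.13 in plate A and -0.31 in plate B. Tmem119, a surface protein of microglia, had a median of 8.83 CPM, a highest value of 4512 CPM and 15 cells at 50 CPM among the class II-low cells, with a pooled level of 76.8 CPM beside 435 and 2935 CPM in class II-high and Sall1-sum-high cells. P2ry12, the purine receptor by which microglia sense injury, was read more widely: 70 class II-low cells reached 50 CPM, and the pooled levels were 527, 521 and 3363 CPM. Il1a, an alarm cytokine, reached 50 CPM in 1 class II-low and 38 Sall1-sum-high cells, with pooled levels of 1.49 CPM (0.992 to 2.16) and 571 CPM.

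A few widely expressed macrophage genes were close between the class II-low and class II-high cells. Csf1r, the receptor that macrophages need to survive, was read in every class II-low cell, from 104 through 4484 to 14186 CPM, and stood at 4772 CPM pooled, beside 4348 CPM in class II-high cells. C1qb, a chain of complement C1q, stood at 5138, 5032 and 4735 CPM in class II-low, class II-high and Sall1-sum-high cells. Apoe, the main lipid carrier of brain macrophages, was at 10772 CPM in the class II-low and 9933 CPM in the class II-high cells but at 2179 CPM in the Sall1-sum-high cells. Of 17 oxidative phosphorylation genes measured, 2 were higher and none lower than in class II-high cells, where 14.7% and 12.8% of all measured genes were.

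Over the 128 class II-low cells, H2-Ab1 and H2-Eb1 went together with a Spearman rho of 0.59 (0.51 in plate A and 0.67 in plate B). Clec10a and Clec4n were both at 50 CPM in 53 cells, with a rho of 0.39 (0.35 and 0.37), and Dab2 and Slc40a1 had a rho of 0.34. Clec4n and H2-Ab1 ran in opposite directions, with a rho of -0.33 (-0.31 and -0.29). These pairs are among the largest of the many compared. Others lay nearer 0, with a rho of 0.003 for Lyve1 and Cd163 and 0.25 (0.05 and 0.40) for Mrc1 and F13a1. H2-Ab1 and H2-Eb1 belong to the set of H2-Aa, whose cutoff chose these cells and limits their range. These are descriptions over cells that share their libraries' plate and differ in depth, and no test was made.

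Genes of other cell types were also read. Egfl7, a gene of endothelium, reached 50 CPM in 36 class II-low (28.1%), 0 class II-high and 3 Sall1-sum-high cells, with pooled levels of 163, 4.81 and 20.7 CPM, and 2538 CPM in endothelial cells. Plvap and Cdh5, named after their values were seen, and Pecam1 stood at 1.6, 0.853 and 5.33 CPM in the class II-low cells. Pecam1 also differed within the microglia class, with a log2 difference of -3.94 from the other microglia-class cells. Egfl7, Eng, Cldn5 and Ly6c1 were the most abundant measured genes of the endothelium list in these cells. Against class II-high cells 1 of 6 measured list genes was higher and 3 lower. Over all measured genes the shares were 14.7% and 12.8%. The 20 endothelium genes summed to 28.8 to 2221 CPM per class II-low cell (median 153), 19.9 to 2050.2 CPM per class II-high cell (median 107) and 18472 to 71205 CPM per endothelial cell. None of the 20 was at 0 and 2 were under 1 CPM in the pool of class II-low cells. The myelin gene Mbp reached 50 CPM in 30 class II-low and 6 class II-high cells, at 438 and 90.6 CPM. Sox10 and Olig1, transcription factors of oligodendrocytes, and Mog, named after their values were seen, were the only 3 of 8 listed oligodendrocyte genes under 1 CPM. Of 3 oligodendrocyte genes measured against class II-high cells, 2 were higher and none lower, with a median log2 difference of 1.76. Over all measured genes 14.7% were higher and 12.8% lower. The 8 oligodendrocyte genes summed to a median of 62.3 CPM and a highest value of 13126.5 CPM per class II-low cell, beside 38.2 and 3340.3 CPM in class II-high cells, with none at 0. The part of such reads in the results above was not tested. Of the 16 monocyte genes, 5 were at 0 and 10 under 1 CPM, and their sum had a median of 9.66 and a highest value of 4528 CPM. Of 9 neutrophil and mast cell genes 8 were at 0. The T, B and NK cell genes summed to a median of 535 CPM (highest 11712), beside 774 CPM in class II-high cells. Dendritic cell genes summed to a median of 108 CPM (highest 7139), beside 201 CPM. Choroid plexus epithelium genes summed to a median of 0 and a highest value of 2808 CPM. Mural genes summed to a median of 13.4 CPM (highest 1080), beside 13.6 CPM (highest 1269) in class II-high cells.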

How the data were processed

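Each of the 391 GEO samples is 1 cell. The deposited table holds whole-number read counts per gene and cell, and the authors' annotation gives a class code per cell, whose 2 codes were matched to the 2 cell types of the labels. No column could be tied to a single GEO sample. The build was GRCm39 and the tools named were featureCounts, Subread 1.4.6-p5 and SAMtools 1.16.1, per the submitters' processing notes. For aligner, annotation and strand the setting is not given in the sources used here, so reads of overlapping, antisense or near-identical genes cannot be told apart. No 2 columns were identical.

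Here counts were scaled to CPM of all 56941 genes, per cell or pooled over a group, with exact Poisson intervals at 95%, and differences were taken as log2(CPM + 1). Genes were measured at 10 CPM and a read in 20% of cells in either group, and called at 2-fold. Cells were thinned to 39000 reads where shares of cells with a read are given. No test was made, since each group is 1 sample, and no doublet caller was run. The calling step was tested on simulated pooled reads with counting error only. They held no differences between cells or plates, so the simulation says nothing on calls that such differences produce. Promoter sequences are from RefSeq (GRCm38.p6), whose coordinates were used for nothing else.

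The class II-low cells, the 6 markers and the 43 gene lists were chosen with earlier results of these data known. Genes were named if they were markers, were among the largest differences in either direction (20 up and 15 down against all other microglia-class cells, 12 each way against the other groups, at 50 CPM and in 50% of cells), or led a list in level or difference. Folr2, Cd209f, Siglec1, Fcna, Colec12, Cdh5, Plvap, Mog, Sox10, Olig1, Cd200r1, Hmox1, Axl, Fcgrt, Entpd1, Etv1 and Slc15a2 were named after their values were seen. Some genes that these rules select are not reported here. Alternatives were other pseudocounts, no filter, equal weight per cell, other scalings, each plate alone, other cutoffs, thinning, and leaving out the highest cell of each gene or cells rich in endothelium reads. Tables were read with pandas 2.3.3 and numpy 2.4.6, intervals came from scipy 1.17.1 and figures from matplotlib 3.10.9, all under Python 3.11.15.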

Additional observations from a re-analysis of the deposited data

How the results depend on the processing

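With no filter beyond 1 CPM, 2937 genes were higher and 3763 lower than in other microglia-class cells, 4301 and 2677 against class II-high cells, 4402 and 3059 against Sall1-sum-high cells, and 3554 and 3275 for plate A against plate B of the class II-low cells. With cells thinned to 39000 reads, fewer genes were measured and the counts were 300.0 and 416 against other cells, 353 and 352 against class II-high cells, and 546 and 601 against Sall1-sum-high cells. In plate B alone, 753 genes were higher than in other cells, and 1137 were higher and 977 lower than in class II-high cells. Requiring 2-fold in each plate, an alternative chosen after seeing the data, left 240 and 372 genes against other cells, 298 and 218 against class II-high cells, and 497 and 493 against Sall1-sum-high cells. Leaving out the highest class II-low cell of each gene lowered the share of calls that were higher from 40.6% to 25.6% against other cells, from 53.5% to 37.3% against class II-high cells, and from 51.1% to 37.1% against Sall1-sum-high cells. The counts of lower genes were then 1002, 890.0 and 1211. This alternative removes reads from 1 side only. The number of class II-low cells was 123 with H2-Aa below 750 CPM, 136 below 3000 CPM, 126 with a border sum of 600 CPM, and 128 with a microglia sum below 100 CPM. Among single genes named here, F13a1, Cx3cr1, Entpd1, Etv1, Fcgrt, Gas6, Itgam, Slc9a9, Spic and Ccr2 against class II-high cells fell under 2-fold in 1 or more alternatives, most often in 1 plate alone. Ly6a against class II-high cells turned to 0.26 (log2) in plate A. No paired analysis was possible because each group is 1 sample and no label ties cells to an animal. The depth of the cells limits single-cell zeros: a gene without a read in a cell may still be expressed there.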

Other observations

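Further genes with other roles differed in level. Slc15a2, a transporter of small peptides, reached 50 CPM in 37 class II-low, 10 class II-high and no Sall1-sum-high cells, at 239 CPM (232 to 246), 72.3 CPM and 0.722 CPM. Slc9a9, a sodium-proton exchanger of endosomes, was at 759.6, 312 and 149 CPM. Entpd1 (CD39), which breaks down extracellular ATP, was at 457 CPM, above the 185 CPM of class II-high cells and below the 705 CPM of Sall1-sum-high cells. Cd200r1, an inhibitory receptor, reached 50 CPM in 32 class II-low, 6 class II-high and 4 Sall1-sum-high cells. Of 16 solute carrier genes measured against class II-high cells, 5 were higher and 1 lower, where 14.7% and 12.8% of all measured genes were. The median log2 difference was 0.46 beside 0.04 over all measured genes.

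Among macrophage transcription factors, 3 of 22 measured were higher and 1 lower than in class II-high cells, with a median log2 difference of -0.56, where 14.7% of all measured genes were higher and 12.8% lower. Etv1, an ETS factor, reached 50 CPM in 27 class II-low, 3 class II-high and 3 Sall1-sum-high cells. Spi1, which encodes PU.1, had medians of 351, 986 and 790.2 CPM and was at 681, 1105 and 874 CPM pooled.

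Interferon-stimulated genes had a median log2 difference from Sall1-sum-high cells of 2.51 in plate B and of -0.05 in plate A, and the difference between plates was not tested. Ccr2, a receptor of monocytes, reached 50 CPM in 2 class II-low cells, and 1 of them supplied 53% of its reads.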
